A study of Mus musculus with 16 samples.

Results

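The 9 genes described here encode the enzymes that turn the mitochondrial beta-oxidation spiral: the acyl-CoA dehydrogenases Acadvl, Acadl, Acadm and Acads, the hydratase Echs1, the 3-hydroxyacyl-CoA dehydrogenase Hadh, the 2 subunits of the trifunctional protein Hadha and Hadhb, and the thiolase Acaa2. They were taken by gene symbol from the deposited expression table, where each of the 9 had 1 entry among 23970 symbols, and all 9 were among the 11256 symbols with a mean of at least 0.5 FPKM that were tested. The mice were 16-week-old C57BL/6NTac males of wild type, fed for 10 weeks on a control diet with 10% of its kcal as fat (CON) or a high-fat diet with 60% (HFD). Quadriceps RNA was sequenced from 4 mice per group, either in the basal state (groups named pre) or 3 h after 1 bout of treadmill running to exhaustion (groups named post). All 16 mice had been acclimatised to the treadmill and fasted for 3 h, and the exercised mice then had water but no food until the muscle was taken.

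Beta-oxidation shortens a fatty acyl-CoA in the mitochondrial matrix by repeating 4 reactions: dehydrogenation, hydration, a further dehydrogenation and thiolysis, with acetyl-CoA released in each round. Separate enzymes serve different chain lengths. ACADVL and the membrane-bound trifunctional protein act on long chains, ACADL and ACADM on long and medium chains, and ACADS, ECHS1, HADH and ACAA2 on shorter ones. Skeletal muscle relies on the pathway during fasting and prolonged exercise, and nuclear receptors of the PPAR and ERR families are known to regulate many of its genes.

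The submitters' values are FPKM, fragments scaled for transcript length and for the number of mapped fragments, so levels can be set side by side between genes. Library sums ran from 283575 to 329282 FPKM, the depth of a library relative to CON-pre replicate 1, read from genes of at most 0.5 FPKM, was between 0.702 and 1.13, and the correlation of log2 values between libraries was between 0.966 and 0.984. FPKM carries no read count, so no counting interval can be given. Skeletal muscle markers summed to between 58590 and 78030 FPKM in every library, as the tissue label says. The quadriceps is a mix of fibres and other cells, and more cells of a type and more RNA per cell cannot be told apart in these libraries.

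Promoter sequence is shown for the gene with the largest diet difference before exercise and in the average of both states (Acadl), for the pair that shares 1 promoter region (Hadha and Hadhb) and for the gene that did not follow the others (Echs1). The RefSeq table of GRCm38.p6, matched by symbol, held a window of 250 bases before and 50 bases after the start of 8 of the 9 genes. The starts of Hadha (chr5:30119423-30154980, minus strand) and Hadhb (chr5:30155253-30184593, plus strand) were 273 bases apart, the genes ran in opposite directions, and their windows shared 228 bases. The 250 bases before each start are printed 5′ to 3′ on the strand of the gene. They come from chr1:66863310-66863559 (minus strand), chr5:30155003-30155252 (plus strand) and chr7:140116422-140116671 (minus strand). Capitals mark a match to a searched motif, and there is none in the first pair of sequences.
Acadl: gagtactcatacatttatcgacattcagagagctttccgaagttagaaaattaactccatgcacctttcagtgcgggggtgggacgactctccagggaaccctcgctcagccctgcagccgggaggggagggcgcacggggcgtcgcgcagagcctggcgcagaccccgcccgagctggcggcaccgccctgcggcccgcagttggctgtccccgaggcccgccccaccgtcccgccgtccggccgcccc
Hadhb: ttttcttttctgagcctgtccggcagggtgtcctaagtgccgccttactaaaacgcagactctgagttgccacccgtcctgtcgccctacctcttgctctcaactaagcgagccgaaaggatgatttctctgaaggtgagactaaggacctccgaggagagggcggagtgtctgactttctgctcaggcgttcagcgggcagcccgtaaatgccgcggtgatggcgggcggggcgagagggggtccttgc
Echs1: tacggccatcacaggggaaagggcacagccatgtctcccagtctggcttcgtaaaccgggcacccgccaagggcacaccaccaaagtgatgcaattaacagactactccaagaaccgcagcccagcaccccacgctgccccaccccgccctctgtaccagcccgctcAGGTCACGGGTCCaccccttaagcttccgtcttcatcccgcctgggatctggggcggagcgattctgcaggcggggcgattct

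The motifs searched, on both strands of the 300 bases, were the PPAR-type direct repeat DR1 (AGGTCANAGGTCA with up to 2 mismatches), its exact half-site AGGTCA, which overlaps it, and the ERR element TCAAGGTCA. A DR1 match was found in 1 of the 8 windows, that of Echs1 (AGGTCACGGGTCC, with 2 mismatches, from 83 bases before the start), and in 3.86% of all 32817 windows. The half-site was found in 3 of the 8 (Echs1, Acadvl and Acadm) and in 16.3% of all windows. The ERR element was found in 0 of the 8 and in 0.424% of all windows. These matches describe letters in a short window and are not binding sites.

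Averaged over both exercise states, 6 of the 9 genes were up-regulated in HFD: Acadl 1.60-fold, Acaa2 1.55-fold, Hadha 1.39-fold, Acadvl 1.35-fold, Acadm 1.33-fold and Hadh 1.30-fold (fold on the FPKM + 0.5 scale, limma adjusted p between 1.85e-05 and 0.0190). By the same limma fit, Hadhb (1.33-fold, adjusted p = 0.178) and Acads (1.23-fold, adjusted p = 0.0508) did not pass the threshold of 0.05, and Echs1 was at 0.986-fold (adjusted p = 0.958). Of 31 alternatives, Acads passed in 8 (lowest limma adjusted p 0.00846) and Hadhb in 1 (limma adjusted p = 0.042). Of all genes tested, 0.489% were up-regulated in this comparison. The median log2 fold change of the 9 was 0.41, against -0.02 for all genes.

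**Figure D1:**
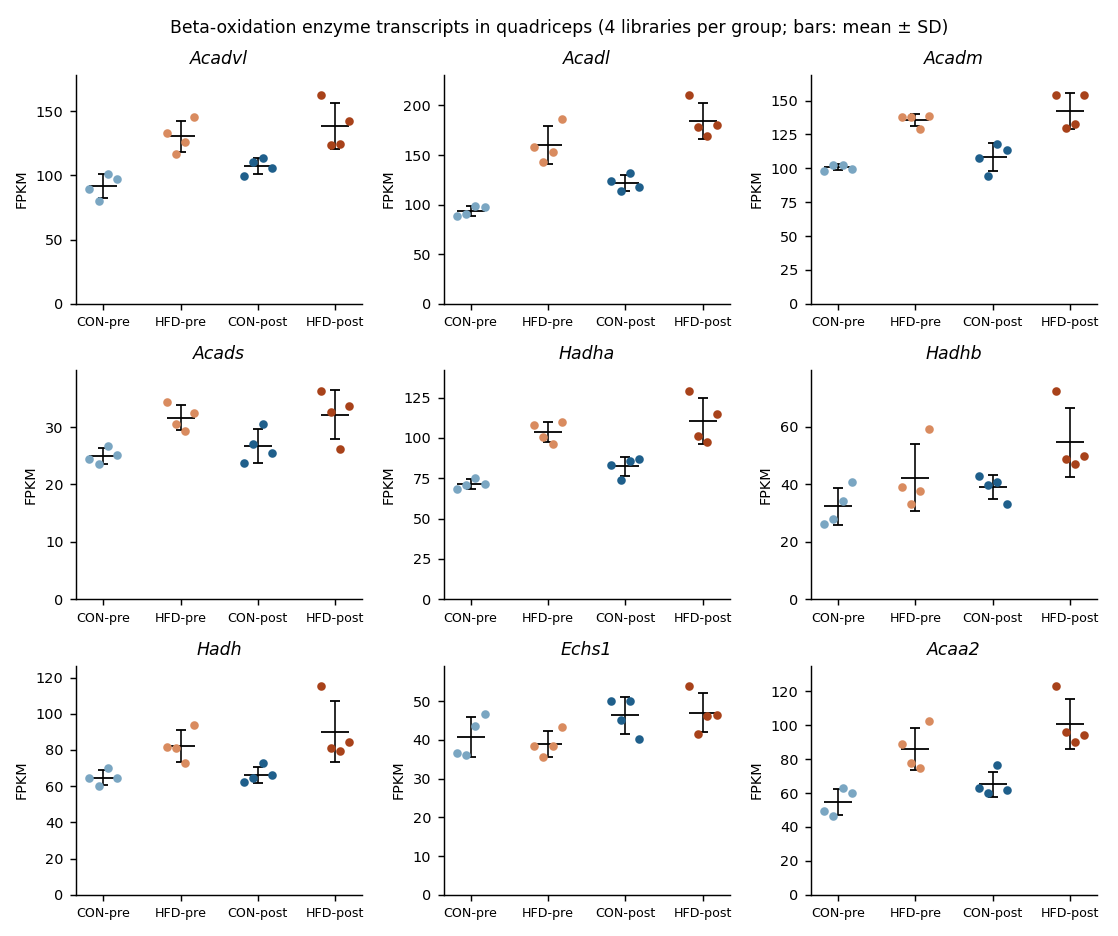
FPKM of the 9 beta-oxidation genes (y axis, from 0) in the 4 groups (x axis), with 1 point per library and bars for the mean ± SD (n = 4). Before exercise Acadl shows the widest separation between the diets, with 4 CON-pre libraries between 88.2 and 98.1 FPKM and 4 HFD-pre libraries between 142.7 and 186.7 FPKM, while the Echs1 points of both diets overlap.

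Acadl encodes long-chain acyl-CoA dehydrogenase. Its level was 88.2, 90.5, 98.1 and 97.4 FPKM in CON-pre and 158, 142.7, 153 and 187 FPKM in HFD-pre (replicates 1 to 4). It was 124, 113, 132 and 118 FPKM in CON-post and 210.2, 178, 169 and 181 FPKM in HFD-post. The 8 HFD libraries all lay above the 8 CON libraries, and the 4 CON-post libraries also lay above the 4 CON-pre libraries. The group means were 93.5 ± 4.96 in CON-pre, 160.2 ± 18.8 in HFD-pre, 122 ± 8.01 in CON-post and 184 ± 17.9 FPKM in HFD-post (SD, n = 4). HFD-pre exceeded CON-pre 1.70-fold (95% interval 1.501 to 1.93, 0.77 with a standard error of 0.09 on the log2 scale, limma adjusted p = 0.00108), and HFD-post exceeded CON-post 1.51-fold (95% interval 1.33 to 1.72, adjusted p = 0.00883). With only the 2 post groups fitted, the second difference had the same size and a limma adjusted p of 0.109.

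Acadvl, the very long-chain acyl-CoA dehydrogenase of the inner membrane, was at 89.2, 79.8, 101 and 96.9 FPKM in CON-pre and 133, 116, 126 and 145.5 FPKM in HFD-pre. It was at 99.3, 110.5, 114 and 106 FPKM in CON-post and 162, 124, 125 and 142 FPKM in HFD-post. The diets did not overlap in either state. The rise was 1.42-fold before exercise (95% interval 1.23 to 1.64, limma adjusted p = 0.0300) and 1.28-fold after it (95% interval 1.11 to 1.48, adjusted p = 0.255), of which the first passed the threshold. That call was lost in 8 of 32 alternatives (limma adjusted p 0.0521 to 0.123): with no filter, only the 2 groups fitted or no mean-variance trend, and when replicate 1 or 2 of CON-pre or replicate 1, 3 or 4 of HFD-pre was left out.

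Acadm, the medium-chain acyl-CoA dehydrogenase, had the smallest coefficient of variation of the 9 in the basal groups (2.25% in CON-pre and 3.28% in HFD-pre), with 98.1, 102, 103 and 99.4 FPKM in CON-pre and 138, 138, 129 and 139 FPKM in HFD-pre. It was at 108, 94.5, 118 and 113 FPKM in CON-post and 154, 129.6, 133 and 154 FPKM in HFD-post. Again every HFD library lay above every CON library of its state. The level rose 1.35-fold before exercise (95% interval 1.21 to 1.505, limma adjusted p = 0.0138), and the difference after exercise was 1.31-fold (95% interval 1.18 to 1.47) at an adjusted p of 0.0497. The first call was lost when replicate 1 of CON-pre or replicate 1 or 4 of HFD-pre was left out (limma adjusted p 0.0545 to 0.0654). The second lay close to the threshold: the adjusted p was above 0.05 without any 1 of 15 of the 16 libraries (0.0509 to 0.165), HFD-post replicate 2 being the exception.

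Acads, the short-chain acyl-CoA dehydrogenase, had the lowest mean of the 9 in every group. It was at 24.4, 23.6, 26.8 and 25.1 FPKM in CON-pre and 34.4, 30.5, 29.3 and 32.5 FPKM in HFD-pre, which did not overlap. It was at 23.7, 27.1, 30.5 and 25.5 FPKM in CON-post and 36.3, 32.6, 26.2 and 33.7 FPKM in HFD-post, where replicate 3 fell within the CON-post range. The differences of 1.26-fold (95% interval 1.09 to 1.45, limma adjusted p = 0.238) and 1.20-fold (95% interval 1.04 to 1.38, adjusted p = 0.594) did not pass the threshold.

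Echs1, the short-chain enoyl-CoA hydratase of the second reaction, was the exception. It was at 36.5, 36.1, 43.5 and 46.8 FPKM in CON-pre and 38.3, 35.4, 38.5 and 43.4 FPKM in HFD-pre. It was at 50.1, 45.1, 50.03 and 40.1 FPKM in CON-post and 53.8, 41.6, 46.1 and 46.3 FPKM in HFD-post. The diets overlapped in both states. The averaged difference was 0.986-fold with a 95% interval of 0.885 to 1.10, so the 1.60-fold of Acadl lies outside it.

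Hadha and Hadhb encode the alpha and beta subunits of the trifunctional protein, which carries out the last 3 reactions on long chains. Hadha was at 68.1, 70.8, 75.4 and 71.1 FPKM in CON-pre and 108, 100.4, 96.4 and 109.6 FPKM in HFD-pre. It was at 83.4, 73.6, 85.6 and 87.0 FPKM in CON-post and 129, 101, 97.2 and 115 FPKM in HFD-post. Its diets did not overlap in either state, with a rise of 1.45-fold before exercise (95% interval 1.28 to 1.64, limma adjusted p = 0.00837) and a difference of 1.33-fold after it (95% interval 1.18 to 1.51, adjusted p = 0.0678).

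Hadhb had the highest coefficient of variation of the 9 in CON-pre (20.4%), HFD-pre (27.7%) and HFD-post (21.9%), against 4.26%, 5.98% and 13.1% for Hadha, but not in CON-post, where its 10.8% lay below the 11.4% of Acaa2. It was at 26.3, 27.8, 34.3 and 40.7 FPKM in CON-pre and 39.0, 33.0, 37.6 and 59.3 FPKM in HFD-pre. It was at 42.7, 39.6, 40.9 and 33.0 FPKM in CON-post and 72.5, 48.9, 47.1 and 49.9 FPKM in HFD-post. The diets overlapped before exercise and did not overlap after it. Neither difference passed the threshold, at 1.29-fold (95% interval 0.992 to 1.68, limma adjusted p = 0.620) and 1.38-fold (95% interval 1.06 to 1.79, adjusted p = 0.653). Without HFD-pre replicate 4, the basal log2 fold change of Hadhb was 0.19 in place of 0.37.

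Hadh, the short-chain 3-hydroxyacyl-CoA dehydrogenase, was at 64.3, 60.3, 69.8 and 64.7 FPKM in CON-pre and 81.4, 81.0, 72.6 and 93.8 FPKM in HFD-pre. It was at 62.1, 64.3, 72.6 and 66.2 FPKM in CON-post and 115, 81.2, 79.4 and 84.2 FPKM in HFD-post. The diets did not overlap in either state. The difference was 1.26-fold before exercise (95% interval 1.081 to 1.48, limma adjusted p = 0.313) and 1.34-fold after it (95% interval 1.15 to 1.57, adjusted p = 0.193), so Hadh passed the threshold in the average and in neither state by itself.

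Acaa2, the thiolase that releases acetyl-CoA, was at 49.2, 46.7, 62.7 and 60.1 FPKM in CON-pre and 88.8, 77.8, 74.6 and 102 FPKM in HFD-pre. It was at 63.0, 60.2, 76.3 and 61.5 FPKM in CON-post and 123, 96.1, 90.2 and 94.0 FPKM in HFD-post. No HFD library fell within the range of its CON group. The rise was 1.57-fold before exercise (95% interval 1.30 to 1.88, limma adjusted p = 0.0355), and the difference after it was 1.54-fold (95% interval 1.28 to 1.85, adjusted p = 0.0678). The basal call was lost in 13 of 32 alternatives (limma adjusted p 0.0505 to 0.157), at log2 fold changes of 0.56 to 0.69. Among these were upper-quartile scaling, the mean of the adipocyte markers as a covariate, and leaving out replicate 1 or 2 of CON-pre, 1, 2 or 4 of HFD-pre, or 2 or 4 of HFD-post.

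In HFD-pre against CON-pre, 5 of the 9 genes were thus up-regulated (Acadl, Hadha, Acadm, Acadvl and Acaa2), where 0.240% of all genes tested were, and 7 of the 9 did not overlap in the higher direction, where 1.68% of all genes did. The median log2 fold change was 0.43 for the 9 and -0.03 for all genes. Acadl and Hadha passed the threshold in all 32 alternative fits. Leaving out CON-pre replicate 1, HFD-pre replicate 1 or HFD-pre replicate 4 gave a count of 2, and leaving out CON-pre replicate 2 gave 3, as did a fit of only the 2 groups, of all symbols without a filter, or without the mean-variance trend. In HFD-post against CON-post, 2 were up-regulated (Acadl and Acadm; Acadl alone under each of the 3 other scalings), where 0.124% of all genes were, and 7 did not overlap, where 1.88% of all genes did. The median was 0.42 for the 9 and 0.00 for all genes. Echs1 was at a log2 fold change of 0.02, which turned negative without CON-post replicate 4 or HFD-post replicate 1 (-0.05 each).

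**Figure D2:**
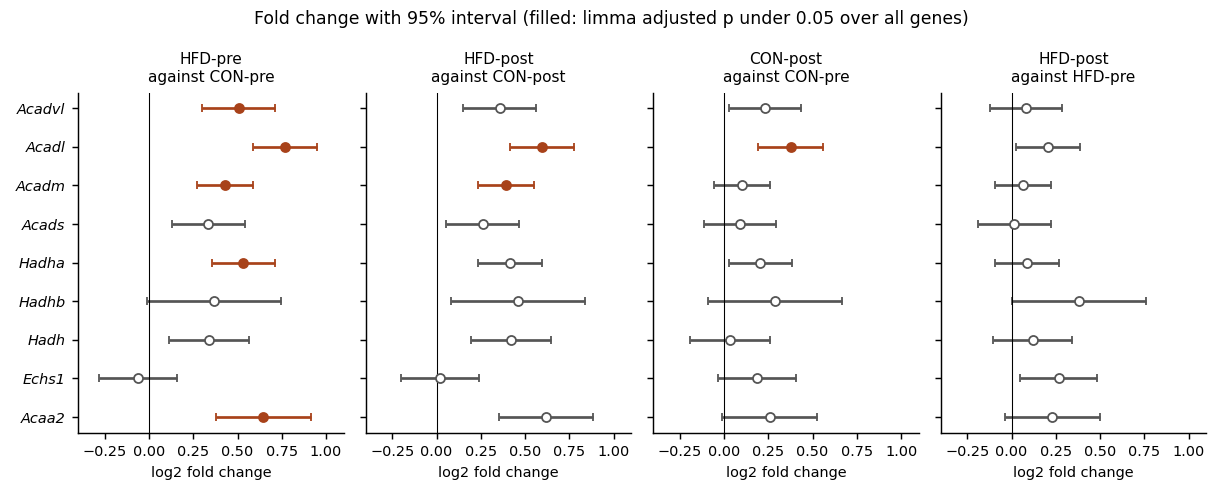
Log2 fold change of each gene (x axis) in the 4 comparisons between groups, with 95% intervals and filled points for a limma adjusted p under 0.05 over all genes tested. The 2 diet comparisons on the left hold 5 and 2 filled points, the exercise comparison in CON holds 1 (Acadl) and the exercise comparison in HFD holds none, and Echs1 lies near 0 in both diet comparisons.

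The exercise comparisons held 1 call among the 9 genes in CON and 0 in HFD. All 9 had a positive estimate in CON-post against CON-pre, as 48.3% of all genes did (Hadh turned negative under upper-quartile scaling and quantile normalization). Their median was 0.20 on the log2 scale (all genes -0.01), and 1 of the 9 was up-regulated, where 0.968% of all genes were. This was Acadl, at 1.30-fold (95% interval 1.14 to 1.47, 0.38 with a standard error of 0.09 on the log2 scale, limma adjusted p = 0.0427), and it was also the 1 gene of the 9 whose CON-post and CON-pre libraries did not overlap, where 3.29% of all genes did so in this direction. The adjusted p of Acadl was above 0.05 after leaving out CON-pre replicate 1, 2 or 3, HFD-pre replicate 1 or 3, CON-post replicate 1, 3 or 4, or HFD-post replicate 2 or 4 (0.0573 to 0.163), which leaves 0 of the 9, and also under each of the 3 other scalings. In HFD-post against HFD-pre, all 9 estimates were again positive, as were 59.3% of all genes (Acads turned negative under all 3 scalings tried and Acadvl under quantile normalization), with a median of 0.12 (all genes 0.04). By limma, 0 of the 9 were up-regulated, where 0.489% of all genes were, and 0 did not overlap, where 4.72% of all genes did. An unadjusted p under 0.05 was found by limma for 3 of the 9 (Acadl, Hadhb and Echs1) and for 1320 of all 11256 genes tested. Each group enters both a comparison of exercise and a comparison of diet, so these comparisons share libraries.

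Averaged over both diets, Acadl was up-regulated 1.22-fold after exercise (95% interval 1.12 to 1.34, limma adjusted p = 0.0126), a call lost under upper-quartile scaling (log2 fold change 0.25, adjusted p = 0.0506). Of all genes, 2.95% were up-regulated. The other 8 did not pass the threshold. Among them by limma, Hadhb (1.26-fold, 95% interval 1.05 to 1.52, adjusted p = 0.168), Acaa2 (1.18-fold, 95% interval 1.04 to 1.35, adjusted p = 0.149) and Echs1 (1.17-fold, 95% interval 1.05 to 1.30, adjusted p = 0.1003) had the 3 highest estimates, that of Hadhb being above that of Acadl. Echs1 passed when CON-pre replicate 4 was left out (limma adjusted p = 0.0488), and Hadhb passed when HFD-pre replicate 4 was (limma adjusted p = 0.0416). In the same comparison, 1 of 6 endothelial markers (Pecam1, log2 fold change 0.36, limma adjusted p = 0.00141) and 1 of 11 skeletal muscle markers (Des, 0.23, adjusted p = 0.0322) were up-regulated. Of 10 fast-fibre markers, 1 was down-regulated (Casq1, -0.32, limma adjusted p = 0.00546). The part of these markers in the exercise differences was not tested.

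The difference in diet response between the exercise states was tested as an interaction. It was not detected for any of the 9 (limma adjusted p = 0.9999 for each, 0 of 9 with an unadjusted p under 0.05), and 0% of all genes tested passed, with 356 at an unadjusted p under 0.05. The estimates ran from -0.17 (Acadl, 95% interval -0.43 to 0.09) to 0.09 (Hadhb, 95% interval -0.44 to 0.63) on the log2 scale. These intervals leave room for a diet response after exercise that is smaller or larger than before it.

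**Figure D3:**
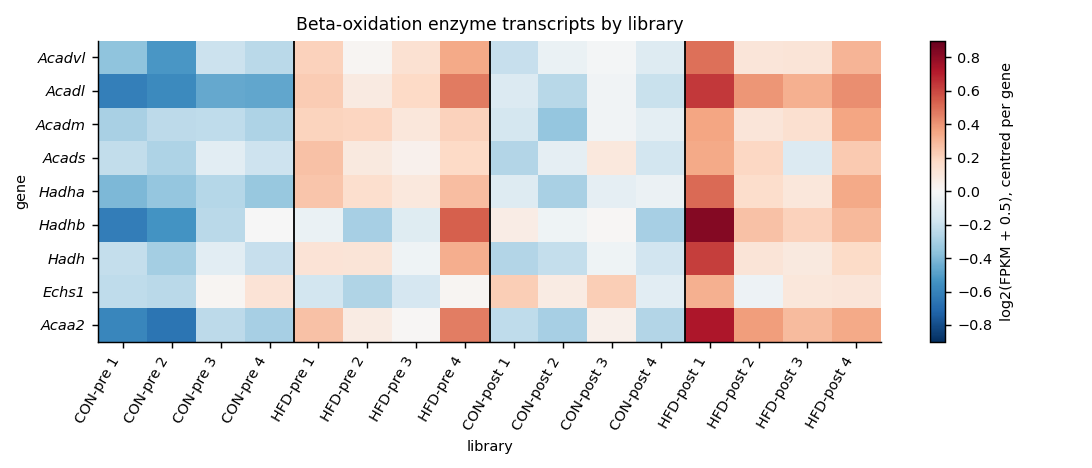
Log2(FPKM + 0.5) of the 9 genes (rows) in each of the 16 libraries (columns, in 4 blocks by group), centred on the mean of each gene. The HFD columns are mostly red (above the mean) and the CON-pre columns mostly blue (below it), HFD-post replicate 1 holds the highest value of its group in 8 rows, and the Echs1 row is split by library more than by diet.

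Summed, the 9 transcripts made up 538 to 614 FPKM in CON-pre (0.167 to 0.190% of the FPKM of a library), 755 to 912 FPKM in HFD-pre (0.251 to 0.300%), 628 to 719 FPKM in CON-post (0.191 to 0.227%) and 813 to 1056 FPKM in HFD-post (0.269 to 0.372%). The sums of the diets did not overlap in either state. The order of the genes by mean FPKM was Acadm, Acadl, Acadvl, Hadha, Hadh, Acaa2, Echs1, Hadhb and Acads in CON-pre. Of these 8 neighbouring pairs, only Acadvl and Hadha did not overlap. Acadl led in the other 3 groups, where it lay above Acadm in every library. Acaa2 passed Hadh in the order of means in both HFD groups, and Hadhb passed Echs1, but each of these neighbours overlapped. Acadvl held place 3, Hadha place 4 and Acads place 9 in each group.

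The acyl-CoA dehydrogenases did not shift by the same factor, which was tested on log2 ratios within a library, since such a ratio does not depend on library scaling. Diet labels were permuted within each exercise state (exact two-sided permutation test, 4900 arrangements, smallest possible p 4.08e-04, adjusted over 7 pairs). The ratio of Acadl to Acads was 3.56, 3.78, 3.62 and 3.82 in CON-pre and 4.55, 4.63, 5.16 and 5.68 in HFD-pre. It was 5.13, 4.13, 4.26 and 4.54 in CON-post and 5.73, 5.40, 6.36 and 5.30 in HFD-post. The diets did not overlap in either state, and the log2 ratio was higher by 0.38 in HFD (exact permutation p = 4.08e-04, adjusted p = 0.00143, n = 8 against 8). The ratio of Acadl to Acadm was higher by 0.27 on the log2 scale (exact permutation p = 8.16e-04, adjusted p = 0.00190), with the diets apart before exercise and overlapping after it. The ratio of Acadvl to Acadl fell by 0.25 on the log2 scale (exact permutation p = 4.08e-04, adjusted p = 0.00143), with the diets apart in both states. The diet difference of Acadl was thus larger than that of each of the other 3 dehydrogenases.

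The remaining pairs moved less. The ratio of Acadvl to Acads was higher by 0.13 on the log2 scale (exact permutation p = 0.0233, adjusted p = 0.0407). That call was lost when CON-pre replicate 1, 2 or 3, HFD-pre replicate 3 or 4, CON-post replicate 2 or 3, or HFD-post replicate 1 or 3 was left out (adjusted p from 0.0507 to 0.0886). The ratio of Acadm to Acads differed by 0.11 (exact permutation p = 0.0816, adjusted p = 0.114) and that of Acadvl to Acadm by 0.02 (exact permutation p = 0.785, adjusted p = 0.785), and neither passed. For the trifunctional subunits, the ratio of Hadha to Hadhb ranged from 1.74 to 2.56 in CON-pre, 1.84 to 3.01 in HFD-pre, 1.85 to 2.61 in CON-post and 1.78 to 2.28 in HFD-post. Its log2 difference between the diets was 0.06 (exact permutation p = 0.622, adjusted p = 0.725), within the spread of the libraries.

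**Figure D4:**
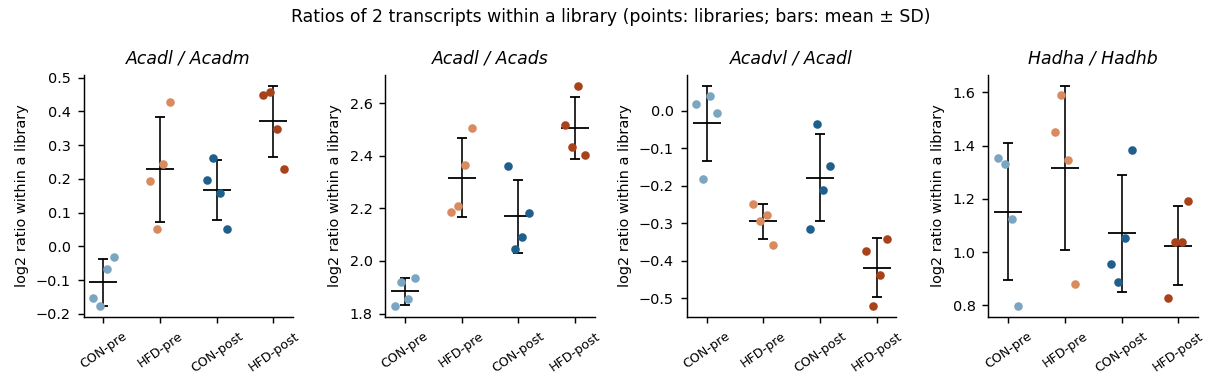
Log2 ratio of 2 transcripts within a library (y axis, which does not start at 0) for 4 gene pairs in the 4 groups, with 1 point per library and bars for the mean ± SD (n = 4). The Acadl to Acads ratio is higher and the Acadvl to Acadl ratio lower in HFD in both states, while the points of the Hadha to Hadhb ratio overlap between all groups.

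Libraries differed together within a group. HFD-post replicate 1 had the highest level of its group for 8 of the 9 genes, HFD-pre replicate 4 for 8, CON-pre replicate 3 for 7 and CON-post replicate 3 for 6, while CON-pre replicates 1 and 2 held the lowest level of their group for 4 and 5. HFD-post replicate 1 also had the highest sum in its group of 48 oxidative phosphorylation (OXPHOS) genes (14580 FPKM, the others 13210 to 13440), of 20 tricarboxylic acid (TCA) cycle genes (3712 FPKM, the others 3321 to 3403) and of 10 slow-fibre markers (866.5 FPKM, the others 232 to 506.5). The highest OXPHOS sum of their group also lay in CON-pre replicate 3, HFD-pre replicate 4 and CON-post replicate 3 (13910, 14010 and 14470 FPKM). In these groups the highest slow-fibre sum lay in other libraries: CON-pre replicate 4, HFD-pre replicate 3 and CON-post replicate 1 (785.6, 580 and 804.2 FPKM). The slow-fibre sum ranged from 243 to 786 FPKM in CON-pre, 239 to 580 in HFD-pre, 226.5 to 804 in CON-post and 232 to 866.5 in HFD-post, with 0 of 10 markers called by diet (limma, 0 at an unadjusted p under 0.05), a median log2 fold change of -0.41 and no marker at 0. Fast-fibre and general skeletal muscle markers were lower in HFD in their medians. In the averaged comparison, 9 of 10 fast-fibre markers had a negative estimate (0 called by limma, 6 at an unadjusted p under 0.05, median -0.15), and their sum was 70070 to 78050 FPKM in CON-pre, 61980 to 69470 in HFD-pre, 63750 to 69470 in CON-post and 53100 to 68490 in HFD-post. Of 11 skeletal muscle markers, 8 had a negative estimate (0 called, 8 at an unadjusted p under 0.05, median -0.15), and no marker of either list was at 0. Of all 11256 genes tested, 1174 were at an unadjusted p under 0.05 in this comparison, and 43.4% had a positive estimate. The part of these markers in the diet differences was not tested. With the slow-fibre mean as a covariate in limma, the averaged diet difference of Acadl was 0.71 on the log2 scale (adjusted p = 1.48e-05) and that of Hadha 0.50 (adjusted p = 3.86e-04), and with the OXPHOS mean as a covariate these were 0.66 and 0.46 (adjusted p = 2.29e-06 and 3.72e-04). Fast-fibre and skeletal muscle means were not used as covariates, so these fits do not test the part of fibre types.

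Adipocytes between the fibres also carry beta-oxidation transcripts. The 9 adipocyte markers summed to 380 to 489 FPKM in CON-pre, 333 to 425 in HFD-pre, 386 to 575 in CON-post and 349 to 676 in HFD-post, with none at 0. By diet, 1 of them was up-regulated in the average (Lep, log2 fold change 2.54, limma adjusted p = 2.43e-04) and 2 were down-regulated (Cfd, -1.77, adjusted p = 1.75e-04, and Adrb3, -0.73, adjusted p = 0.0267). Of 3 brown-fat markers, 1 reached the level tested, Cidea, and it was up-regulated (0.68, limma adjusted p = 0.0180). The 3 summed to 0.570 to 1.42 FPKM in CON-pre, 1.03 to 3.29 in HFD-pre, 0.290 to 2.28 in CON-post and 1.22 to 1.69 in HFD-post, and Elovl3 was at 0 in HFD-pre and CON-post. The part of brown fat in the diet differences was not tested. With the adipocyte mean as a covariate in limma, the averaged diet difference of Acadl was 0.69 (adjusted p = 2.72e-05) and that of Acaa2 0.64 (adjusted p = 0.00138), and Acadvl, Acadl, Acadm, Hadha, Hadh and Acaa2 passed. That mean joins markers that ran in both directions by diet, so the part of adipocytes was not tested by this fit.

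The surroundings of the spiral were read from 9 lists with 77 genes, of which 75 were tested. They hold steps of fatty acid oxidation and also 18 transcriptional regulators, 7 dehydrogenases of other substrates and 5 ketone body and thiolase genes, so counts over all 75 are not counts of oxidation enzymes. In HFD-pre against CON-pre, 9 were up-regulated (0.240% of all genes) and 1 down-regulated, and the median log2 fold change was 0.08 (all genes -0.03). In the averaged diet comparison, to which the counts by list refer, 18 were up-regulated (0.489% of all genes) and 1 down-regulated, with a median of 0.10 (all genes -0.02).

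Calls were found among genes of fatty acid uptake, activation and carnitine transfer. Of the carnitine shuttle list, which includes genes that carry long-chain acyl groups into the matrix, 4 of 6 were up-regulated by diet in the average: Slc25a20, the carnitine-acylcarnitine translocase (log2 fold change 0.59, limma adjusted p = 1.75e-04), Cpt2 (0.46, adjusted p = 3.88e-04), Crat (0.24, adjusted p = 0.00372) and Cpt1b (0.28, adjusted p = 0.00965). Slc25a20 was at 26.2 ± 2.95 FPKM in CON-pre and 40.8 ± 2.66 FPKM in HFD-pre (SD, n = 4). Of uptake and activation, 4 of 12 were up-regulated by limma: the fatty acid translocase Cd36 (0.55, adjusted p = 0.00196), the fatty acid binding protein Fabp3 (1.22, adjusted p = 0.00251), the acyl-CoA synthetase Acsl1 (0.32, adjusted p = 0.0157) and the transporter Slc27a1 (0.41, adjusted p = 0.0197).

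Of the auxiliary enzymes, which include those that reshape double bonds before the spiral can proceed, 4 of 9 were up-regulated by diet. Ech1, a dienoyl-CoA isomerase, rose from 99.9 ± 8.95 FPKM in CON-pre to 183 ± 14.1 FPKM in HFD-pre (SD, n = 4; log2 fold change 0.87, limma adjusted p = 0.00108), beside 0.77 for Acadl, a difference that was not tested. By limma, the others in the average were Decr1, a dienoyl-CoA reductase (0.72, adjusted p = 1.60e-04), Eci2, an enoyl-CoA isomerase (0.31, adjusted p = 0.00111), and the thioesterase Acot2 (0.67, adjusted p = 0.00333), whose near-identical copy Acot1 makes its value uncertain. Mean Acot2 was 2.51 FPKM in CON-pre and 6.15 FPKM in HFD-pre. After exercise it was 7.60 FPKM in CON-post and 8.67 FPKM in HFD-post, with overlapping ranges (6.53 to 8.63 and 7.03 to 9.54 FPKM). Of the electron transfer chain that takes electrons from the dehydrogenases, Etfdh (0.47, limma adjusted p = 0.00178) and Etfb (0.30, adjusted p = 0.0209) were up-regulated, 2 of 3.

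The lists around malonyl-CoA, the inhibitor of acyl entry into mitochondria, ran in both directions. Mlycd, which removes malonyl-CoA, was up-regulated (averaged log2 fold change 0.40, limma adjusted p = 0.00467), and Acaca, which makes it, was down-regulated (-0.52, adjusted p = 0.00135), while Acacb was at 0.01 (adjusted p = 0.952). Of 12 peroxisomal genes, 1 was up-regulated (Hsd17b4, 0.37, limma adjusted p = 0.0134), and the thiolase Acat1 was also up-regulated (0.30, limma adjusted p = 0.00739).

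Lists next to the pathway held few or no calls by diet. None of 7 acyl-CoA dehydrogenases of branched chains and other substrates was called in the averaged comparison (limma, 4 at an unadjusted p under 0.05, median log2 fold change -0.05), none of 18 transcriptional regulators (2 at an unadjusted p under 0.05, median 0.00), none of 20 TCA cycle genes (2, median 0.07) and none of 48 OXPHOS genes (1, median 0.03). Among all 11256 genes tested, 1174 were at an unadjusted p under 0.05 there. After exercise, averaged over diets, 13 of the 75 were up-regulated by limma and 0 down-regulated, where 2.95% of all genes were up-regulated. Of these, 4 were in uptake and activation, 2 in the carnitine shuttle, 2 around malonyl-CoA, 1 among the auxiliary enzymes, 1 among the peroxisomal genes and 3 among the regulators. Those of the regulators were Ppargc1a (2.04, adjusted p = 2.63e-07), the co-repressor Nrip1 (0.63, adjusted p = 0.00180) and Lpin1 (0.37, adjusted p = 0.00141). The log2 fold change of Ppargc1a, a coactivator of oxidative genes, was 1.98 in CON (limma adjusted p = 4.38e-05) and 2.10 in HFD (adjusted p = 2.87e-05), beside 0.38 and 0.20 for Acadl in the same comparisons.

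**Figure D5:**
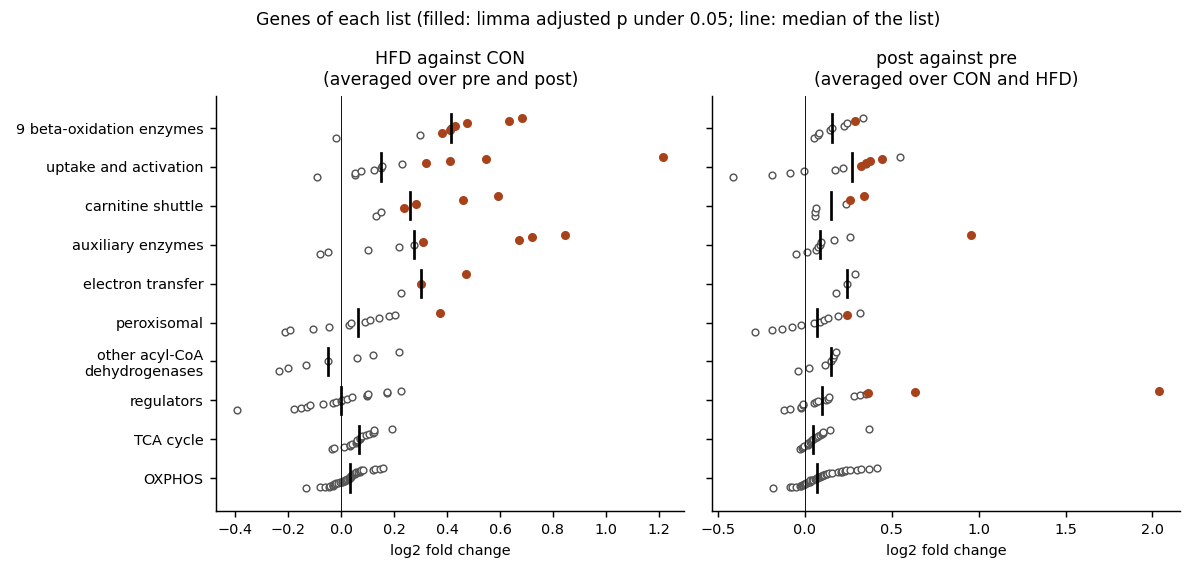
Log2 fold change (x axis) of each gene in 10 lists (rows) for the diet difference averaged over exercise states (left) and the exercise difference averaged over diets (right), with 1 point per gene, filled for a limma adjusted p under 0.05, and a line at the median of the list. The 9 core genes have a median of 0.41 for diet and 0.16 for exercise, while the TCA cycle and OXPHOS lists have diet medians of 0.07 and 0.03.

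As a description, the Pearson correlation over the 16 libraries of a gene with the mean centred log2 profile of the 9 was highest, outside the 9, for Etfdh (0.978), Fabp3 (0.961), Ech1 (0.955), Ephx2 (0.948), BC048679 (0.941), Cd36 (0.941), Etfb (0.940), Cpt1b (0.938), Slc25a20 (0.937) and Dhrs4 (0.937). These points share libraries and the difference between the diets. After the group means were subtracted, the highest were Mdh1 (0.960), Mb (0.950), Fxyd6 (0.946), Ech1 (0.925), Atp1b1 (0.924), Ndufs1 (0.908), Phyh (0.907), Etfdh (0.900), BC048679 (0.892) and Esrrb (0.892). Etfdh, Ech1 and BC048679 were in both lists. Of the core genes, each set against the mean of the other 8, Acaa2 was closest over all libraries (0.986) and Echs1 farthest (0.394), but within groups Echs1 reached 0.771 and Acadm was farthest (0.521). The closest partner of Echs1 within groups was Hadhb (0.892).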

How the data were processed

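Reads of stranded quadriceps mRNA libraries were trimmed, checked with FastQC, aligned to mm9 with TopHat and turned into expression values with Cufflinks by the study (versions not given in the sources used here). The authors deposited FPKM, 1 column per library, which is scaled for length and library size. FPKM holds no read counts, so no count model was used. Of 24487 entries, 27 with date-like names were left out (0.0771% of all FPKM) and 260 symbols found in several entries were summed.

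Groups came from the sample titles. Symbols whose mean reached 0.5 FPKM were tested on log2(FPKM + 0.5) with limma 3.58.1 (R 4.3.3, mean-variance trend) in 1 fit of the 4 groups, two-sided, with Benjamini-Hochberg adjustment over 11256 symbols. Fold changes on this scale understate those of low genes. Ratios were tested by exact permutation within exercise state (Python 3.11.15, scipy 1.17.1). The code was tested on simulated data.

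The 9 genes and all lists were chosen with earlier results of these data known, so no list was tested as a set. The genes named are the 9, up to 20 listed genes around the pathway called by diet, the marker genes called, and the 10 with the most similar profile over all libraries and within groups. Acacb and the regulators called after exercise were added after their values were seen. Positions and sequences are from RefSeq GRCm38.p6, matched by symbol. Alternatives were other pseudocounts, filters, scalings, thresholds, weights and covariates, a fit of 2 groups, a replicate block and leaving out each library. 1 listed gene is not reported here by name. Metabolite data were not analysed here.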

Additional observations from a re-analysis of the deposited data

Results flagged for a closer look

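In each of the 9 genes and 4 groups (36 sets of 4 libraries), the gap between the highest or lowest library and its neighbour was compared with the range of the group by Dixon's criterion (0.829 for 4 values), which chance passes in about 1 set of 20. It was passed in 3 sets. Acadm was 129.4 FPKM in HFD-pre replicate 3, below the other 3 libraries (137.8 to 138.8 FPKM). Without that library, its log2 fold change in HFD-pre against CON-pre was 0.46 (limma adjusted p = 0.0308). Hadhb was 72.47 FPKM in HFD-post replicate 1 and 47.1 to 49.9 FPKM in the others. Without that library, its log2 fold change in HFD-post against CON-post was 0.32 (limma adjusted p = 0.894) in place of 0.46. Hadh was 115.1 FPKM in the same library and 79.4 to 84.2 FPKM in the others. Without it, the log2 fold change of Hadh was 0.30 in HFD-post against CON-post (limma adjusted p = 0.321) and 0.32 in the averaged diet comparison (limma adjusted p = 0.00997).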

How the results depend on the processing

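The diet difference averaged over exercise states held 6 to 8 of the 9 genes in all 31 alternatives, and Acadvl, Acadl, Acadm, Hadha, Hadh and Acaa2 passed in each. In HFD-pre against CON-pre, where 5 were called, the count was 3 with no filter on low values, with only the 2 groups fitted and without the mean-variance trend, and between 2 and 5 when 1 library was left out. In HFD-post against CON-post, where 2 were called, it was 1 with a pseudocount of 0.1, no filter, upper-quartile, median-of-ratios or quantile scaling, no trend, array weights or the adipocyte covariate, 0 with only the 2 groups fitted, 4 with the OXPHOS or slow-fibre covariate or at an adjusted p under 0.1, and 1 to 2 with 1 library left out. In CON-post against CON-pre, where 1 was called, it was 0 with no filter, each of the 3 scalings, only 2 groups fitted or no trend, and 0 to 1 with 1 library left out. For exercise averaged over diets, where 1 was called, it was 0 with upper-quartile scaling and 1 to 2 with 1 library left out. It was 0 in all alternatives for HFD-post against HFD-pre and the interaction. The cause of these differences was not tested.

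Estimates near 0 changed sign, and none of these had passed the test. Echs1 was at -0.0019 (array weights) and -0.0117 (OXPHOS covariate) in HFD-post against CON-post, and at 0.0222 (slow-fibre covariate) in the averaged diet comparison. Hadh in CON-post against CON-pre was at -0.0058 (upper-quartile), -0.0112 (quantile) and -0.0582 (OXPHOS). In HFD-post against HFD-pre, Acadvl was at -0.0056 (quantile) and -0.0230 (OXPHOS), and Acads at -0.0219 (upper-quartile), -0.0235 (median-of-ratios), -0.0529 (quantile), -0.0085 (array weights), -0.0567 (OXPHOS) and -0.0070 (adipocyte). In exercise averaged over diets, Acads was at -0.0018 (quantile) and -0.0182 (OXPHOS), and Hadh at -0.0178 (OXPHOS). The interaction of Acaa2 was at 0.0137 (adipocyte). With 1 library left out, Echs1 ran from -0.1144 to 0.0084 in HFD-pre against CON-pre, from -0.0486 to 0.0742 in HFD-post against CON-post and from -0.0545 to 0.0134 in their average. Hadh ran from -0.0109 to 0.0698 in CON-post against CON-pre and from -0.0054 to 0.1833 in HFD-post against HFD-pre, where Acads ran from -0.0445 to 0.1104. Interactions ran from -0.1034 to 0.0052 (Acadm), -0.1340 to 0.0208 (Acads), -0.0485 to 0.2679 (Hadhb), -0.0385 to 0.1503 (Hadh) and -0.1259 to 0.0602 (Acaa2). The log2 ratio of Acadvl to Acadm ran from -0.0173 to 0.0580 and that of Acadvl to Acads from 0.1096 to 0.1624. The ratios of Acadl to Acadm, Acadl to Acads and Acadvl to Acadl kept their direction and passed in all 19 alternatives.

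Same-numbered libraries of different groups correlated between -0.220 and 0.213 in 24 pairs, with 5 above 0.1, and 6 of 16 libraries correlated best with their own number, so the numbers were not taken as pairs. With the number as a replicate block, the count was 1 in HFD-post against CON-post, 0 in CON-post against CON-pre and 4 in HFD-pre against CON-pre (Acaa2 at a limma adjusted p of 0.0655), and the ratio of Acadvl to Acads (0.1333) had an adjusted p of 0.0547 by exact permutation.

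In HFD-pre against CON-pre, Acaa2 was not called in 13 of 32 alternatives, Acadvl in 8 and Acadm in 3. Of the 75 listed genes around the spiral, 5 to 15 were called in that comparison (10 as reported) and 18 to 20 in the averaged diet comparison (19 as reported). Over all genes, the 39 calls of HFD-pre against CON-pre became 63 with array weights, 66 with the slow-fibre covariate, 62 at an adjusted p under 0.1 and 21 to 24 after leaving out 1 of 5 libraries (HFD-pre replicates 1, 3 and 4 and CON-pre replicates 1 and 2). The 17 calls of HFD-post against CON-post became 2 with only the 2 groups fitted, 27 with the OXPHOS covariate, 31 with the slow-fibre covariate, 30 at an adjusted p under 0.1 and 5 to 11 without CON-post replicate 1, 2 or 3 or HFD-post replicate 1 or 4. The 125 of CON-post against CON-pre became 72 with only the 2 groups fitted, 208 at an adjusted p under 0.1 and 190 without CON-pre replicate 4. The 61 of HFD-post against HFD-pre became 37 with no filter, 38 with the OXPHOS and 25 with the adipocyte covariate, 93 at an adjusted p under 0.1 and 21 to 36 without HFD-pre replicate 1, 2 or 3 or HFD-post replicate 2, 3 or 4. The 108 of the averaged diet comparison became 189 with the slow-fibre covariate and 178 at an adjusted p under 0.1. The 435 of averaged exercise became 273 with the OXPHOS covariate, 779 at an adjusted p under 0.1 and 246 to 289 after leaving out 1 of 3 libraries (HFD-pre replicates 1 and 2 and CON-pre replicate 1).

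Over all genes, upper-quartile scaling moved the up-regulated share of calls from 69.2 to 57.1% in HFD-pre against CON-pre, from 87.2 to 65.0% in CON-post against CON-pre and from 76.3 to 48.0% for averaged exercise, and quantile normalization moved it from 90.2 to 66.7% in HFD-post against HFD-pre and from 82.4 to 71.4% in HFD-post against CON-post. No scaling moved the median of all genes by over 0.1. FPKM without read counts leaves the precision of single values unknown, and 4 libraries per group limit what could be called.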
